A study of Mus musculus with 2 samples.

Results

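The Myc family windows cover Myc, Mycn and Mycl, the genes of the related transcription factors, and Pvt1, a long noncoding RNA gene beside Myc. Each gene was taken with 500 kb on each side on mouse assembly mm10, and every CTCF peak of the optimal list whose summit fell there was a member. The 4 genes gave 3 windows, because the windows of Myc and Pvt1 overlap and were joined, and these held 77 of the 68603 optimal peaks. The data are CTCF chromatin immunoprecipitation sequencing (ChIP-seq) of whole midbrain from B6NCrl mice at postnatal day 0. There was 1 group of 2 replicates with the same biosample and donor record, and sex was not collected. The spread between replicates may therefore be technical only, and with 1 group no conditions were compared. Because whole midbrain was used, fewer cells with a bound site and less binding per cell cannot be told apart.

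The Myc proteins pair with Max to bind E-box DNA and raise transcription of genes for growth, ribosome assembly and cell division, while Mxd proteins and Mnt compete for Max and oppose them. In the developing brain Mycn is known for keeping neural progenitors dividing. Myc lies in a large region without other coding genes, across which distant enhancers are known to act on it. CTCF, a DNA-binding protein with many zinc fingers, recognises a long motif that has a direction and holds the feet of chromatin loops together with cohesin, most often between motifs that point towards each other. In human cells a CTCF site just upstream of MYC has been described as a docking site for enhancers.

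The sequences at the 3 strongest peaks of each window and at the peaks nearest to the Mycn and Mycl starts are shown so that their motif placements can be compared. A motif of 20 bases, learned from the strongest peaks of these data, had the consensus TGGCCACCAGGGGGCGCTAT, searched on both strands. A placement counted as a match at a p of 1e-05 or less per position, with its centre within 50 bp of the summit. Each sequence is read from GRCm38.p6 along the strand named, 5′ to 3′, and capitals mark the best placement of the motif. A match on the plus strand is written here as pointing to higher coordinates.
Myc, 1955 bp upstream, chr15:61983295-61983567, plus strand: ctctgTGGCCAGTAGAGGGCACACTtactt
Myc, first starts, chr15:61985473-61985694, plus strand, below the match threshold: gtgagCGGACGGTTGGAAGAGCCGTgtgtg
Myc, internal start, chr15:61987022-61987243, plus strand, below the match threshold: gccttTCTCCTTCAGGTGGCGCAAAacttt
Mycn, intron, chr12:12939018-12939292, minus strand: gtgcgTGGCCAGCAGGCGGCGTTGTgtctg
Mycn, 680 bp upstream, chr12:12942436-12942718, minus strand, below the match threshold: cttggTCTCCGCGAGGTGTCGCCTTcggcc
Mycn window, far flank, chr12:12623006-12623267, plus strand: gctcaTCTCCAGAAGGTGGCGCTGTgcttt
Mycn window, beside Ddx1, chr12:13214888-13215259, minus strand: agttcTGTACACTAGGTGGTGCTAGtgtcg
Mycl, 168 bp upstream, chr4:122995357-122995645, plus strand: gccgaGGGCCACCAGGTGGCGCGGTggagg
Mycl, farther upstream, chr4:122985152-122985444, minus strand: gattcTGTCCACTAGAGGGAAACCCaggct
Mycl window, upstream of Heyl, chr4:123219770-123220057, plus strand: ctctcCTGCCAGTAGGTGGCACTGCaggct
Mycl window, past Heyl, chr4:123254654-123254919, minus strand: ttgatGGACCACTAGGGGGCAGTAAtggat
The placements in the Mycn intron and upstream of Mycl each carried the consensus base at 16 of 20 positions, and the one upstream of Myc at 14. Below the threshold, the first Myc starts had 9 such bases, the internal Myc start 13 and the Mycn upstream peak 12. The match farther upstream of Mycl had 11, fewer than the last 2 of these, since the score weighs positions unequally.

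Values of peaks are the deposited signal of each peak. No source used here states its scale, so ranks within a list are given beside them. The percentile of a peak is the share of all optimal peaks with the same or a lower signal, the peak itself included. The family's 77 peaks had a median signal of 51.4, against 76.5 for the optimal list on chromosomes 1 to 19 and X. Of the 77, 75 had a summit within 100 bp in both replicates' own lists, and 61 were also in the conservative list, which was thresholded in another way. The log2 ratio of replicate 1 over replicate 2 lay within 2-fold of the median ratio of all peaks for 68 of the 75 found in both replicates. Over all optimal peaks the corresponding shares were 97.8% in both replicates, 86.9% in the conservative list and, of those in both replicates, 94.8% within 2-fold. The median log2 ratio of all peaks was 0.30 with an SD of 0.46, and signals of the replicates are therefore read against that offset.

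**Figure D1:**
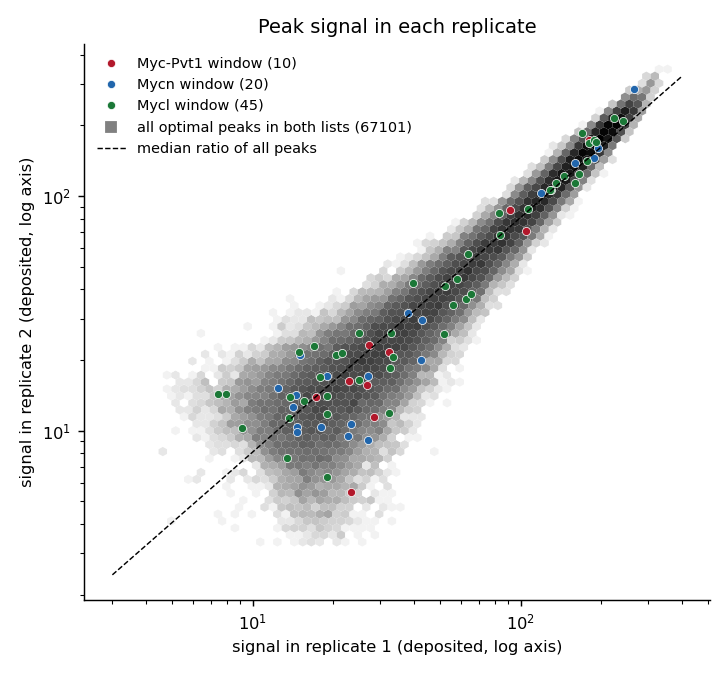
Signal of each peak in replicate 1 (x axis) and replicate 2 (y axis), both deposited values on log axes, for the peaks of the 3 windows found in both replicate lists (coloured points) over all 67101 such optimal peaks (grey). Strong peaks of all 3 windows lie close to the dashed line of the median ratio, and the widest departures are among peaks of low signal.

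A motif match was found at 37 of the 77 family peaks, which is 48.1% (95% Wilson interval 37.3 to 59.0, counting error only), against 57.4% of all optimal peaks. In sequence at the sides of all optimal peaks the share was 1.06%. All 6 family peaks in the top 10% of signal had a match. The motif was learned from strong peaks, and the share over all optimal peaks in the top 10% was not computed. The count is therefore not read as a trait of the family. By window, matches were found at 2 of 10 peaks around Myc and Pvt1 (95% interval 5.67% to 51.0%), at 10 of 22 around Mycn (45.5%, 26.9 to 65.3) and at 25 of 45 around Mycl (55.6%, 41.2 to 69.1). These intervals overlap each other. The share around Myc and Pvt1 was 12.5% with 250 kb on each side, 16.7% with the conservative list and 42.1% with 1 Mb. It was 40% at a motif p of 1e-04, where the share of all peaks was not computed. The main interval ends below 57.4%, but it rests on 10 peaks and covers counting error only. No difference from all peaks is therefore claimed. In the Mycl window the median signal was 195 for peaks with a match and 38.9 for those without. In the Mycn window these medians were 71.2 and 31.4, against 127 and 49.1 over all optimal peaks. Of the 37 matches, 13 lay in repeat-masked sequence, 11 of them in the Mycl window, 2 in the Mycn window and 0 around Myc and Pvt1. Over all optimal peaks 30.1% of matches lay in repeats.

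A summit lay within 1 kb of an annotated start of Myc, Mycn and Mycl, but not of Pvt1. This makes all 3 coding members, or 3 of 4 with the noncoding Pvt1, beside 43.4% of all protein-coding genes. The share over noncoding genes is not given here. Within 1 kb of their starts the strongest optimal peaks were ordered Mycl, Mycn, Myc, and replicate 1 and replicate 2 each gave that order. The signal was 170 and 186 at Mycl in replicates 1 and 2, 159 and 138 at Mycn, and 91.5 and 87.1 at Myc, whose second start peak had 105 and 71.2. These values are not adjusted for the offset between the replicates, so only the order within each replicate is read. Over the 9431 coding genes with such a peak the median of the strongest signal, in the optimal list, was 84.4, which the optimal signals of 357 at Mycl, 300 at Mycn and 178 at Myc all exceeded.

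Pvt1, unlike the coding members, had no peak at a start. Only 43.4% of all protein-coding genes had one within 1 kb, so this alone does not set Pvt1 apart. None of its 10 annotated starts had an optimal summit within 10 kb, and the nearest lay 29584 bp before the first of them. In the lists without an IDR threshold, a peak near the first Pvt1 starts had a signal of 14.98 on both replicates together, 7.22 in replicate 1 and 7.12 in replicate 2. In that list of both replicates it ranked 102191, and only 0.70% of optimal peaks had a lower signal. Since read depth is unknown, the start of Pvt1 is one where no optimal peak was listed, not one shown to be unbound.

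Around Myc, a gene of 4.98 kb on the plus strand of chromosome 15 (61985391 to 61990374), 4 peaks clustered within 5 kb of a start. The strongest of the whole Myc and Pvt1 window had its summit at 61983436, 1955 bp upstream of the first Myc start and 134 bp before the start of Gm37947, a transcript model of unknown function. Its signal was 352, at percentile 89.7, with 179 in replicate 1 and 173 in replicate 2. The replicates were nearly equal there, and its log2 ratio, 0.25 below the median of all peaks, was the lowest of the window. Its motif match, at a p of 2.6e-08, pointed along the plus strand, into Myc. A weaker peak, of signal 54.3, had its summit 933 bp upstream of the first start with 32.2 in replicate 1 and 21.6 in replicate 2.

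The other strong Myc peaks lay in the gene itself, both in annotated untranslated sequence. The first, at chr15:61985473-61985694, had its summit 196 bp after the first start and 23 bp after the start of another Myc transcript, with a signal of 178, 91.5 in replicate 1 and 87.1 in replicate 2. Its best motif placement had a p of only 0.00324. The second had its summit 90 bp after an internal Myc start, with a signal of 175, 105 in replicate 1 and 71.2 in replicate 2. Its best placement, printed above, had a p of 3.2e-05, and so was counted as a match only at the looser threshold of 1e-04. The 201 bp around these summits held 14 and 25 CpG dinucleotides, against a median of 2 over all optimal peaks and a 90th percentile of 11. Whether sequence composition has a part in these 2 peaks was not tested.

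Away from Myc the window was sparse and its peaks were weak. The joined window of Myc and Pvt1 (chr15:61485391-62878096, 1.39 Mb) held 10 peaks, or 7.18 per Mb, with a median signal of 46.5, and only 3 of the 10 exceeded the median of all optimal peaks. Those 3 were the upstream peak and the 2 peaks in Myc. The remaining 7 had signals between 29.2 and 54.3. They include 2 near Myc, the highest of them, 933 bp upstream, and one of signal 43.1, 10.2 kb upstream. The nearest peak to Pvt1, at chr15:62008247-62008556 between the genes, had a signal of 29.2, with 23.3 in replicate 1 and 5.49 in replicate 2. It had the most unequal replicates of the window, 1.78 above the median log2 ratio, and was absent from the conservative list. Only 1 summit lay inside Pvt1, which spans 340 kb, at chr15:62137226-62137535 in an intron, with a signal of 32.2, 17.3 in replicate 1 and 13.9 in replicate 2.

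From that intron of Pvt1 the next optimal summit lay 429 kb away, at chr15:62566250-62566559, with a signal of 40.2, 22.9 in replicate 1 and 16.2 in replicate 2. Neither of the summits that bound this stretch had a motif match. Repeats filled 24.1% of it and assembly gaps 0%, against 28.5% repeats over the window. The stretch depended on the list, because a peak at 62465223 with a signal of 53.3 on both replicates together, 33.4 in replicate 1 and 18.9 in replicate 2, was in the conservative list but not in the optimal one. With the conservative list the longest stretch was 328 kb. With the strongest peaks of replicate 2 alone, taken without an IDR threshold, the window held 12.2 peaks per Mb and the longest stretch was 285 kb.

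**Figure D2:**
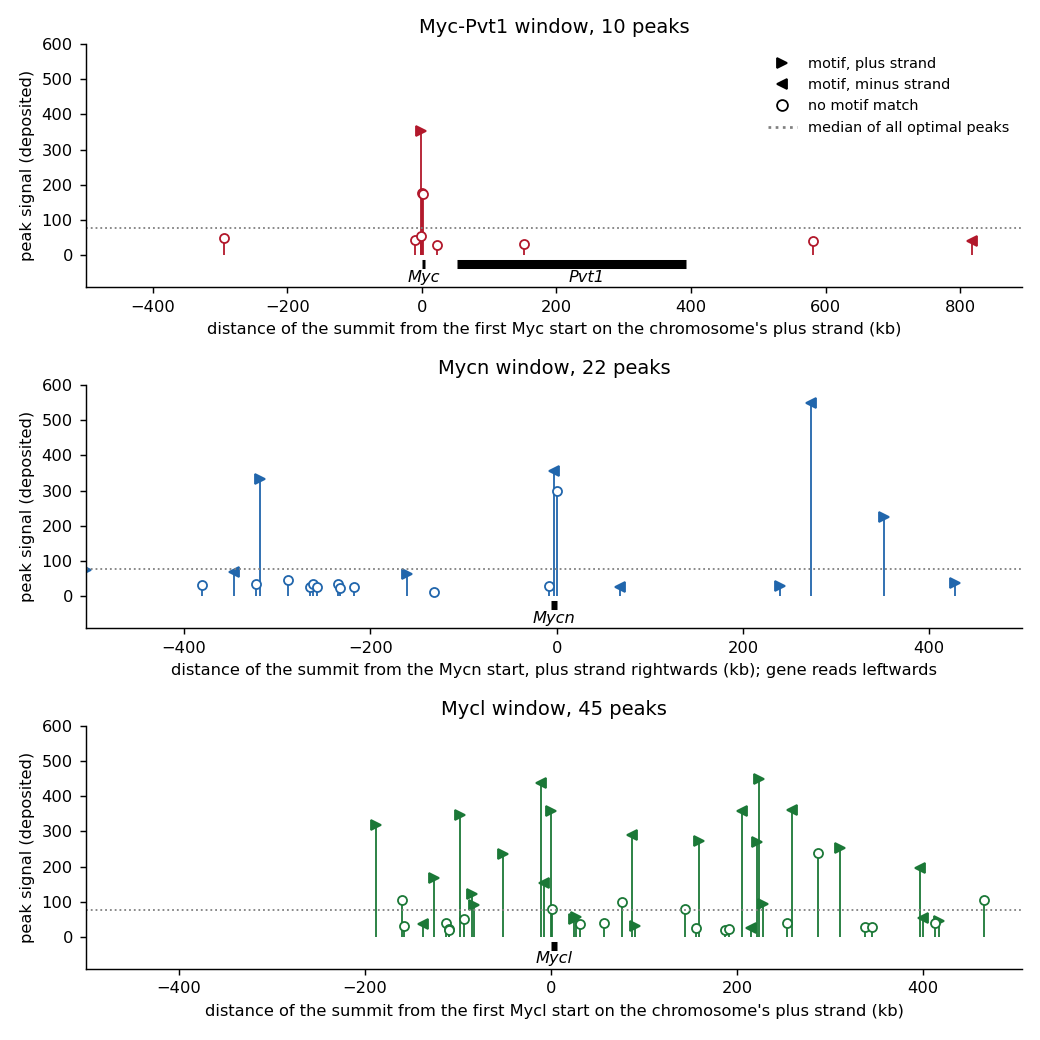
Deposited signal of every optimal peak in the 3 windows (y axis) by distance of its summit from the start of Myc, Mycn or Mycl in kb (x axis), with right- and left-pointing triangles for motif matches on the plus and minus strand, open circles for no match and black bars for the genes. Peaks above the dotted median of all optimal peaks number 3 around Myc and Pvt1, 5 around Mycn and 24 around Mycl.

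The sparse region reached beyond the window. The nearest other coding genes, A1bg and Gsdmc, lie 2.85 Mb apart, and between them were 25 optimal peaks, or 8.76 per Mb. Of these 25, 6 lay within 100 kb of a Myc start. The part of this desert left of the window held 6 peaks with a median signal of 204, and the part to its right 9 with a median of 209, against 46.5 inside the window. On the left, 5 of the 6 had a motif match, 3 on the plus and 2 on the minus strand. On the right 7 of 9 had a match, all 7 on the minus strand and so pointing left. Except for that of a peak of signal 39.8, these 7 lay 1614 to 1784 kb beyond the nearest Myc start. That is the Gsdmc end of the desert. How often matches in a row share a strand elsewhere is not given here. Inside the window the 2 matches faced each other. They were the one upstream of Myc, on the plus strand, and one at chr15:62802821-62803130, on the minus strand, 816 kb beyond the nearest Myc start. The second of these was weak, with a signal of 41.4, 28.3 in replicate 1 and 11.5 in replicate 2, and was absent from the conservative list. The facing pair was lost in the conservative list, with 250 kb on each side and with only the stronger 50% of peaks, where all matches of the window were on the plus strand.

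The strongest peaks of the desert lay at its ends. On the left, a peak 828 kb before the first Myc start (chr15:61157548-61157908) had a signal of 493, with 250.2 in replicate 1 and 242 in replicate 2, and a plus strand match. On the right, a peak 1784 kb beyond the nearest Myc start (chr15:63771622-63771914) had a minus strand match. Its signal was 427, with 222 in replicate 1 and 206 in replicate 2. A further right-hand peak at 1665 kb had a signal of 393, with 211 in replicate 1 and 181 in replicate 2. These 3 peaks exceeded the peak upstream of Myc in both replicates. They lie outside the 500 kb window, and were named after their values were seen.

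**Figure D3:**
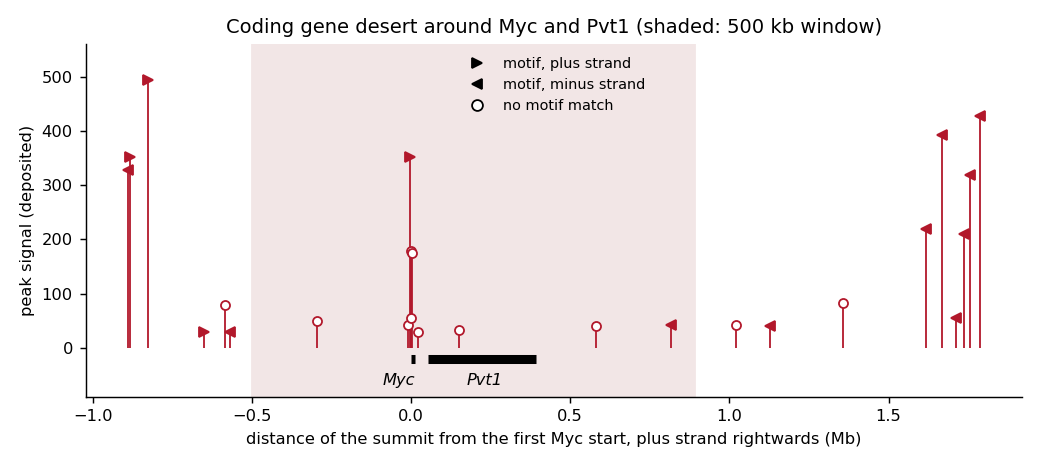
Deposited signal (y axis) of the 25 optimal peaks between the coding genes that flank Myc and Pvt1, by distance of the summit from the first Myc start in Mb (x axis), with motif strand as triangles, the window shaded and black bars for Myc and Pvt1. Strong peaks stand at Myc and at both ends of the desert, and all 7 matches right of the window point left.

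Mycn, a gene of 5.82 kb on the minus strand of chromosome 12 (12936093 to 12941914), had a pair of strong peaks around its start. The first lay in its intron, 1468 bp after an internal Mycn start and farther from the first one. Its signal was 354, with 195 in replicate 1 and 160 in replicate 2. Its motif match, at a p of 2.0e-06, was on the minus strand, the strand of the gene. The second lay 680 bp upstream of the first start, with a signal of 300, 159 in replicate 1 and 138 in replicate 2. Its best placement had a p of 3.5e-05 and missed the threshold, and the 201 bp around its summit held 20 CpG dinucleotides. The intron peak was the higher of the pair in both replicates. Within 500 bp of a start Mycn had no optimal summit. With that narrower rule Myc and Mycl had a peak at a start, which is 2 of the 4 members with the noncoding Pvt1. The share of all coding genes was then 35.8%.

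The Mycn window (chr12:12436093-13441914) held 22 peaks, or 21.9 per Mb, of which 17 lay between genes. The median signal was 35.2, at a median percentile of 21.0, and 5 peaks exceeded the median of all optimal peaks. The median percentile was 33.9 with replicate 1 left out, 35.2 with the conservative list, 13.5 with 250 kb on each side and 46.9 with 1 Mb. The strongest family peak, at chr12:13214888-13215259, had a signal of 548, with 264 in replicate 1 and 284 in replicate 2, at percentile 99.8. It stood 273 kb from the nearest Mycn start, just beyond the 3′ end of Ddx1, an RNA helicase gene, and its match pointed along the minus strand, back towards Mycn. On the other flank, a peak 317 kb from the nearest Mycn start had a signal of 334, with 189 in replicate 1 and 145 in replicate 2. Its match was on the plus strand, so these 2 strong flanking matches faced each other with Mycn and other matches between them. Of the neighbouring matches in the window, 3 pairs faced each other, 3 pointed apart and 3 pointed the same way. The facing flanks are therefore not set apart. The fifth peak above the median, in an intron of Nbas, had a signal of 225, with 119 in replicate 1 and 103 in replicate 2.

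The other 17 peaks of the Mycn window had signals between 12.6 and 73.5. The lowest, at chr12:12810429-12810738, had 3.43 in replicate 2 and no summit in the list of replicate 1, and a peak of signal 22.3 had 16.7 in replicate 1 and none in replicate 2. The replicates were most unequal, among peaks in both, at an Nbas intron peak of signal 38.1, with 26.9 in replicate 1 and 9.09 in replicate 2. In the other direction, a peak of signal 34.8 had 14.98 in replicate 1 and 21.1 in replicate 2. The longest stretch without a summit was 172 kb, between peaks of signal 27.2 and 28.8 that each had a motif match. The Mycn desert between Fam49a and Ddx1 was 836 kb long and held 25 peaks, or 29.9 per Mb.

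Mycl, a gene of 6.83 kb on the plus strand of chromosome 4 (122995652 to 123002485), had the strongest start peak of the family. Its summit lay 168 bp upstream of the first start, with a signal of 357, 170 in replicate 1 and 186 in replicate 2. Its motif match, at a p of 3.4e-08, pointed along the plus strand into the gene. A second peak in a Mycl intron had a signal of 80.5, with 39.8 in replicate 1 and 42.4 in replicate 2, and no match. Upstream lay 2 further peaks whose matches were on the minus strand and so pointed away from Mycl. The one 10.4 kb upstream had a signal of 436, with 223 in replicate 1 and 216 in replicate 2. The one 7.47 kb upstream had a signal of 153, with 83.8 in replicate 1 and 68.4 in replicate 2. The strongest peak within 5 kb of a start had its match on the strand of the gene at Myc, Mycn and Mycl. How often this holds over all coding genes was not computed. Within 1 kb of a start, the strongest peak had a match only at Mycl. The order of the strongest peaks within 5 kb, unlike that of the peaks within 1 kb, turned between replicates. Mycn was highest in replicate 1 and Mycl in replicate 2.

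The Mycl window (chr4:122495652-123502485) held 45 peaks, or 44.7 per Mb, and the median signal was 80.5, at a median percentile of 51.5. It held 16 coding genes, against 3 in the Mycn window and 1 around Myc and Pvt1. Of its peaks, 9 lay at starts, 3 in exons, 15 in introns and 18 between genes. Its strongest peak lay 13639 bp upstream of Heyl, a gene of the Notch-regulated Hey family, with a signal of 449.5, 241 in replicate 1 and 209 in replicate 2. Another, of signal 361, past Heyl, had 191 in replicate 1 and 170 in replicate 2. The weakest peaks of the window included those at the start of Cap1, an actin regulator, where a peak of signal 21.5 had 7.41 in replicate 1 and 14.4 in replicate 2, the lowest ratio of the window. The highest ratio was at a peak of signal 27.0 with 18.9 in replicate 1 and 6.35 in replicate 2.

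Inside the Mycl window the longest stretch between summits was 53.0 kb, between peaks of signal 32.7 and 79.4. Its left edge was different, since the first summit stood 313 kb into the window and the last one before it lay 1567 kb away. That stretch held 4 coding genes and 17 pseudogenes, with 53.0% repeats and 4.43% assembly gaps, and only 3 peaks of the list of both replicates, the strongest of signal 28.2. Its low number of listed peaks and its repeat content occur together, and whether reads could be placed there was not tested. The space between the coding genes beside Mycl, Mfsd2a and Trit1, was 55.4 kb long and held the 4 peaks described above.

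Read against all 21755 protein-coding genes, each with 500 kb on both sides, Myc alone had 8 peaks, or 7.96 per Mb. Of the coding genes, 7.74% had a lower density. The share was 23.2% for Mycn and 56.3% for Mycl, and the density of Pvt1, 7.46 per Mb, stood at 7.28% on the same scale. The median of all coding genes was 39.8 per Mb, and the 10th and 90th percentiles were 10.9 and 80.1. A median coding gene had 17 other coding genes in its window, against 0 for Myc, 2 for Mycn and 15 for Mycl. Of the 144 other genes with no coding neighbour in the window, 82 had a lower density than Myc. The density around Myc was therefore within the range of genes in equally empty surroundings, whose median was 7.29 per Mb. The 21.9 per Mb around Mycn stood above 11.1 per Mb, the median of the 728 coding genes with at most 2 other coding genes in the window. That set includes windows emptier than that of Mycn, and the share of it below Mycn is not given. The density around Mycn is therefore not read as unusual for its surroundings.

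**Figure D4:**
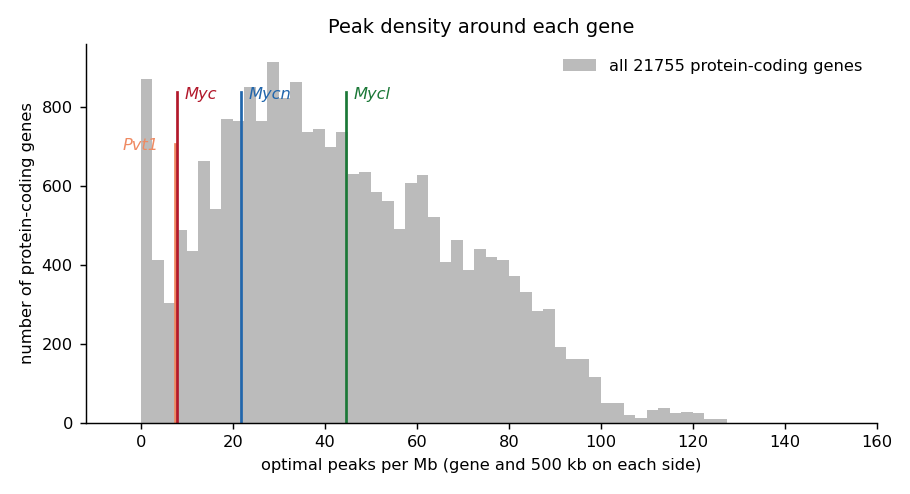
Number of protein-coding genes (y axis) by optimal peaks per Mb in the gene and 500 kb on each side (x axis), with vertical lines at the values of Myc, Pvt1, Mycn and Mycl. Myc at 7.96 and Pvt1 at 7.46 stand near the low end, Mycn at 21.9 below the median and Mycl at 44.7 above it.

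Genes that work with the family, in 3 lists, were looked at for a summit within 1 kb of a start. In the Max and Mlx network, 6 of 10 genes had one, with a median of their strongest signals of 108. Mxi1, an antagonist that pairs with Max, had a signal of 389, Mxd3, another antagonist, 194, and Mlxipl, a glucose-responsive partner of Mlx, 137. Max itself, the shared partner, had 57.1. Mga and Mlx had no summit within 1 kb. Among cofactors and turnover factors, 11 of 16 had one (68.8%), with a median signal of 221. These were led by Ruvbl2, an ATPase of chromatin remodelling complexes, at 458, Trrap, a scaffold of acetyltransferase complexes, at 370 and Hcfc1, a chromatin adaptor, at 285. Aurka, a kinase that stabilises N-Myc, and Fbxw7, the ubiquitin ligase subunit that marks Myc for destruction, had none.

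Among textbook Myc targets, 12 of 16 had a summit within 1 kb (75.0%), with a median signal of 97.3. The nucleolar genes Fbl and Nop56 had 346 and 259, and Cdc25a, a cell cycle phosphatase, 247, while Cdk4, a cell cycle kinase, and Ncl, which encodes nucleolin, had none. The share was above the 43.4% of all coding genes in each of the 3 groups. With the stronger 50% of the optimal list, 4, 6 and 9 genes of the 3 groups kept a peak, beside 23.1% of coding genes. The groups are small and were chosen for their link to Myc, and CTCF peaks at starts are common, so no list is set apart from other genes here.

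**Figure D5:**
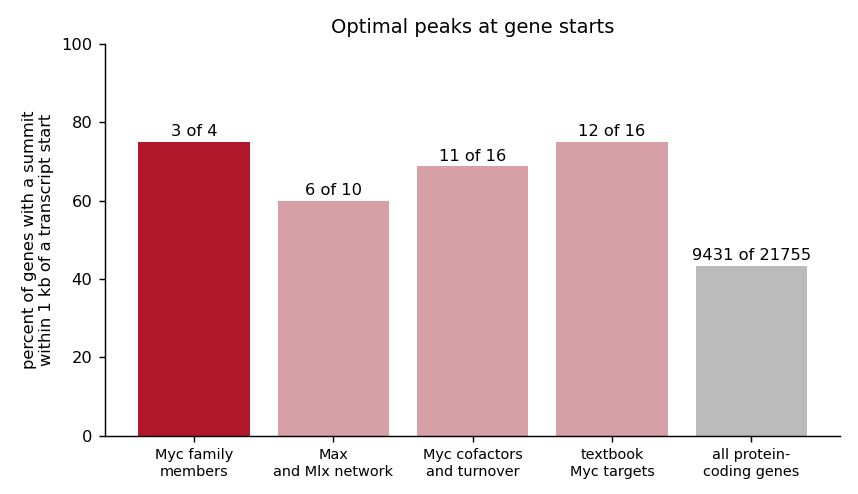
Percent of genes with an optimal summit within 1 kb of a transcript start (y axis, from 0) for the Myc family members, the 3 gene lists and, at the right, all protein-coding genes. The bars stand at 3 of 4, 6 of 10, 11 of 16 and 12 of 16 genes, against 9431 of 21755. The member without a peak, Pvt1, is noncoding, unlike the genes of the last bar.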

How the data were processed

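The authors deposited narrowPeak lists of CTCF ChIP-seq peaks on mm10, called with a control alignment on each replicate and on both together, with optimal and conservative lists thresholded by irreproducible discovery rate (IDR), per the deposited notes. The deposited signal of each peak was used as given. No source used here gives its scale, the peak caller, the aligner or the depth. Each unthresholded list held 300000 peaks and the conservative list 65493.

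Summits were placed in windows of GENCODE vM21 genes with Python 3.11.15, numpy 2.4.6 and pandas 2.3.3, and the 68590 optimal peaks on chromosomes 1 to 19 and X were ranked. Peaks of even-numbered chromosomes were scanned with a motif matrix learned from 2000 strong peaks of the other chromosomes, and the reverse. The methods were tested on simulated data. Replicate values came from summits within 100 bp. No test was run, as there was 1 group. Within each window the peaks named are the 3 strongest, the nearest to each gene's starts, those bounding the longest stretch and those with extreme replicate ratios. Of each gene list they are the 3 genes with the strongest start peak and 2 without, in alphabetical order. Max, and peaks outside these rules, were chosen after their values were seen. The members and lists were chosen with earlier results of these data known. Alternatives were the conservative list, the stronger 50%, each replicate left out, other window widths, start distances, motif settings and matching distances.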

Additional observations from a re-analysis of the deposited data

How the results depend on the processing

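Of 153 recomputed values, 117 stayed within the range set for them and 36 moved. These ranges were wide. Around Myc and Pvt1 a motif share of 42.1% with 1 Mb, against 20% in the main setting, counted as unmoved. The number of unmoved values is therefore not read as a measure of stability. The cause was not tested unless the alternative itself sets it. Using only the stronger 50% of the optimal list removes peaks by construction. It gave 2.15, 4.97 and 23.8 peaks per Mb in the Myc and Pvt1, Mycn and Mycl windows, median percentiles of 42.0, 76.0 and 56.0 within that list, and longest stretches of 2.15, 316 and 86.5 kb. The first of these stretches lies among the 3 peaks left at Myc. The same list gave motif shares of 80.0% (Mycn) and 75.0% (Mycl), 6 cofactor genes with a start peak, and 13 and 8 peaks in the Myc and Mycn deserts. The conservative list gave median percentiles of 29.5 (Myc and Pvt1) and 35.2 (Mycn).

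Leaving out each replicate in turn, which also drops the IDR threshold, gave 10.1 to 12.2 peaks per Mb and longest stretches of 285 to 328 kb around Myc and Pvt1, and median percentiles of 17.7 to 32.6 there, 29.5 to 33.9 around Mycn and 51.3 to 56.0 around Mycl. With 250 kb on each side the Mycn percentile was 13.5 and the Mycl density 69.1 per Mb. With 1 Mb on each side the percentiles were 35.4 (Myc and Pvt1) and 46.9 (Mycn), and the Mycl stretch was 79.6 kb. It was 1567 kb when stretches over a window edge were counted, an alternative chosen after seeing the data. Motif shares were 68.2% (Mycn) and 77.8% (Mycl) at a p of 1e-04, and 9.09% and 33.3% at 1e-06. The share of matches on the plus strand around Myc and Pvt1, 1 of 2, was 100% with the conservative list, the stronger 50% and 250 kb, and that of Mycn was 100% at 1e-06. Read depth is unknown, so no limit of detection could be given. No paired analysis was possible because there was 1 group.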

Other observations

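Many peaks of the windows were listed on both replicates together but in neither IDR list. There were 93 around Myc and Pvt1, 127 around Mycn and 121 around Mycl. They were weak, and only 1 of them, in the Mycn window, exceeded 27.0, the 10th percentile of the optimal list. That peak, at chr12:12617586-12617895 between genes, had a signal of 30.2, with 21.8 in replicate 1 and 10.1 in replicate 2, and a motif match at a p of 2.0e-06. The peaks were looked at after the windows had been described.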
